A study of Homo sapiens with 6 samples.

Results

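The genes described here are the C2H2 zinc finger genes of human chromosome 19 that carry a ZNF symbol. Members were the rows of the deposited count tables whose gene name is ZNF followed by digits and at most 1 letter, whose locus lies on chromosome 19 and whose description does not name a pseudogene. The rule gave 248 of the 50868 genes in the tables. Another 15 rows of chromosome 19 matched the name pattern but are described as pseudogenes and were left out. The name pattern was found in 263 genes of other chromosomes. Members were chosen by name and position, not by their counts. GENCODE release 29 holds all 248 members and lists 247 of them as protein-coding; the exception is ZNF56.

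RNA was sequenced from DU145, a human prostate cancer cell line. The siRCC2 group had 3 libraries, labelled RCC2 knockdown and titled with the prefix of a small interfering RNA (siRNA), and the siCtrl group had 3 libraries of the same line labelled RCC2 wild type. RCC2 encodes a protein of the RCC1 repeat family that binds chromatin and centromeres. Neither the time after transfection nor the siRNA sequences are stated in the labels. The labels also do not say that replicate libraries are separate cultures, so p-values measure only how these libraries vary, which could be technical variation.

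A C2H2 zinc finger is a short protein loop in which cysteine and histidine pairs hold a zinc ion and an alpha helix reads DNA bases. Many fingers in tandem, joined by a conserved linker, let a protein recognise a long DNA site. Most of the chromosome 19 genes also encode a KRAB box, which binds the corepressor TRIM28 (KAP1). TRIM28 brings in the histone methyltransferase SETDB1, heterochromatin protein 1 and the NuRD complex, and the proteins are best known for silencing retrotransposons. The genes arose by tandem duplication, so they lie in long runs of related neighbours.

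Translation of the annotated coding sequence found a KRAB A box in 210 members and none in 37. Members had a median of 12 fingers, between 0 and 36, with the most in ZNF208. The repeated unit is shown for 4 members with the smallest p of their chromosomal block in the comparison of siRCC2 with siCtrl. Each line is the first regular finger of the coding sequence with its linker, 84 bases read from GRCh38 at the coordinates given; capitals mark the codons of the zinc-binding cysteines and histidines and of the linker. A finger of this regular form was found in 221 members.
ZNF844 (chr19:12075793-12075876, plus strand): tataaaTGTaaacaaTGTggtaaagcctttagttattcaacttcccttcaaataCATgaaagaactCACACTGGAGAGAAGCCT
ZNF45 (chr19:43914443-43914526, minus strand): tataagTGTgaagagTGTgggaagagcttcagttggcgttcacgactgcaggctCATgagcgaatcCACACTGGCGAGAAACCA
ZNF677 (chr19:53237773-53237856, minus strand): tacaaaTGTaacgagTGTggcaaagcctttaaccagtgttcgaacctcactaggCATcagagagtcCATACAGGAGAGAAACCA
ZNF274 (chr19:58212952-58213035, plus strand): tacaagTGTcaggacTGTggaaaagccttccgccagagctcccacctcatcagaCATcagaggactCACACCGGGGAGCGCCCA

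The bases between the capitals, which include the codons of the DNA-reading helix, differ among these 4 genes. Of the 50-base stretches of a member's longest transcript, a median of 2.75% also occur in transcripts of other genes, and the highest share was 99.5%. In 25 members the share was 20% or more, and the counts of those members depend on how reads were divided between genes. Exons of another gene overlap those of 82 members on the same strand and of 79 on the opposite strand. Use of strand in counting is not given in the sources used here, so reads of a member and of an opposite-strand partner may not have been told apart.

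Promoters were taken from RefSeq (GRCh38.p14), from 250 bases before to 50 after the start, and matched for 216 members. The core CCGGAAG of ETS family sites, on either strand, was in 45.4% of member promoters and in 10.7% of all 27305 promoters of the same length. Among the promoters of members higher in siRCC2 (56 matched) the share was 41.1%. The SP1-type GC box GGGCGG was in 67.6% of member promoters and in 44.6% of all promoters, and CCAAT was in 53.7% and 35.7%. The TATA element TATAAA was in 1.85% of member promoters and 12.0% of all promoters. Both strands were searched, and matches of different motifs may overlap. The promoters of a gene that was higher in siRCC2, ZNF274, and of one that was lower, ZNF599, are shown with the ETS core or its reverse complement in capitals.
ZNF274 promoter (chr19:58182811-58183110, plus strand): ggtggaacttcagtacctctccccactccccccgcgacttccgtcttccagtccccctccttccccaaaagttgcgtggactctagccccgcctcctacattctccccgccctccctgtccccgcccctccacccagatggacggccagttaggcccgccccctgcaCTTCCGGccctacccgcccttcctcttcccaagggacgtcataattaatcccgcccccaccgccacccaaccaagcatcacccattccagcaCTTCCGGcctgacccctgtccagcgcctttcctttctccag
ZNF599 promoter (chr19:34773166-34773465, minus strand): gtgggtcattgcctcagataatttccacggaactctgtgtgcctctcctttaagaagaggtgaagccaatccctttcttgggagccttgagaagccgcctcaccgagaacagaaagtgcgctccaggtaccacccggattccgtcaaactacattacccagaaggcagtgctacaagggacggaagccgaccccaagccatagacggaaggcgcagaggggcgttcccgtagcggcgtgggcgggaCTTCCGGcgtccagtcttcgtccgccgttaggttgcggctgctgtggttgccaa

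The ETS core is present in both promoters shown, though the genes moved in opposite directions. It is absent from the promoter of ZNF45 (chr19:43935233-43935532, not shown), a gene that was also higher in siRCC2. A match of letters is a description of the sequence and not evidence of binding.

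Total counts were between 17377191 and 19895431 per library. A value of 1 CPM (counts per 1000000, scaled by the TMM method of edgeR) stood for 16.5 to 20.2 reads. The targeted gene RCC2 had 59.3, 57.6 and 54.8 CPM in the siRCC2 libraries, against 198, 194 and 191 CPM in the siCtrl libraries. KRT8, KRT18, CDH1 and EPCAM, markers of epithelial cells, were present in all 6 libraries. In siRCC2, KRT8, KRT18 and CDH1 were higher and EPCAM was lower, with log2 fold changes of 0.66, 0.51, 0.29 and -0.48 (edgeR adjusted p = 0.000328, 0.00221, 0.0271 and 0.0181). KLK3, PTPRC, CD3E, CDH5 and PECAM1 were at or below 0.262 CPM in every library. The fibroblast marker COL1A1 had 7.80 to 10.6 CPM in siRCC2 and 11.3 to 13.2 CPM in siCtrl, while PDGFRB was at or below 0.808 CPM. The part of these marker changes in the results was not tested. In bulk RNA, fewer cells of a type and less RNA per cell cannot be told apart.

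Most members had few reads. The median member had a mean of 4.96 CPM over the 6 libraries, 36 members were under 1 CPM, 60 were at 10 CPM or more and the highest had 77.7 CPM. The 224 members that passed the filter on low counts had a median of 5.43 CPM, against 18.6 CPM for all 16536 genes tested. The other 24 members were not tested: 11 had 0 counts in every library and the highest single count was 15. Of the 24, 10 lie in the block between 19.7 and 24.1 Mb, among them ZNF208, ZNF729 and ZNF99.

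Per kilobase of the longest transcript, ZNF787 had the highest level, 37.8 CPM per kb, and ZNF358, ZNF146, ZNF444 and ZNF581 followed at 30.6, 20.6, 18.8 and 18.7 CPM per kb. The median over members was 1.19 CPM per kb. None of these 5 encodes a KRAB box. ZNF787 had 86.2, 80.02 and 81.4 CPM in siRCC2 replicates 1 to 3, against 64.7, 60.1 and 64.6 CPM in siCtrl replicates 1 to 3. All siRCC2 values lay above all siCtrl values, a log2 fold change of 0.39 ± 0.07 (adjusted p = 0.00547) by edgeR's quasi-likelihood test with Benjamini-Hochberg adjustment over all genes tested, which is the test behind every adjusted p here; the figure after ± of a log2 fold change is its standard error. ZNF358 (74.2, 67.5 and 54.5 CPM in siRCC2 replicates 1 to 3, against 60.3, 57.8 and 44.9 CPM in siCtrl replicates 1 to 3) had overlapping groups and a log2 fold change of 0.27 ± 0.15 (adjusted p = 0.202). It passed under 4 of 18 alternatives, with GC offsets (0.0223) and with the replicate block alone, with GC offsets or with length offsets (0.0495, 0.00528 and 0.0478); its log2 fold change was between 0.15 and 0.47.

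ZNF146, also known as OZF, encodes a protein made almost wholly of zinc fingers. Its level was 39.4, 72.4 and 96.0 CPM in siRCC2 replicates 1 to 3, against 87.7, 80.5 and 90.4 CPM in siCtrl replicates 1 to 3. The siRCC2 libraries spread from below to above the siCtrl libraries, and the log2 fold change was -0.31 ± 0.28 (adjusted p = 0.408). ZNF444, which binds the promoter of the scavenger receptor gene SCARF1, averaged 43.6 ± 2.74 CPM in siRCC2 and 33.3 ± 7.59 CPM in siCtrl (SD, n = 3 libraries each), which is a log2 fold change of 0.39 ± 0.17 (adjusted p = 0.110). It passed with GC offsets (0.0242) and with the replicate block and GC offsets (0.0424), and its log2 fold change was between 0.21 and 0.60 over 18 alternatives.

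The chromosome 19 ZNF genes were more often higher than lower after RCC2 siRNA. Of the 224 members tested, 66 (29.5%) were higher in siRCC2 at an adjusted p under 0.05, 8 (3.57%) were lower, and 150 did not pass. Over all 16536 genes tested, 41.8% were called, 20.7% higher and 21.1% lower. The median log2 fold change of the tested members was 0.39, against -0.02 over all tested genes, and 173 of the 224 values were above 0, against 49.1% of all tested genes. At an adjusted p under 0.05 and a change of at least 2-fold, 22 members were higher and 1 was lower, where 4.86% and 7.19% of all tested genes were. In 80 members every siRCC2 library lay above every siCtrl library, and in 13 every one lay below; over all tested genes these shares were 26.9% and 28.5%.

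The number of calls depended on single libraries, among members and over all tested genes, while the balance of higher and lower members moved little. Without siRCC2 replicate 1, 97 members were higher and 9 lower. Without siCtrl replicate 1, 43 were higher and 5 lower, and without siCtrl replicate 2 or 3 the counts were 44 and 5. Leaving out siRCC2 replicate 2 gave 45 and 5, and leaving out siRCC2 replicate 3 gave 54 and 8. Over all tested genes, 6911 were called in the main analysis, and 7565, 5112 and 6787 without siRCC2 replicate 1, 2 or 3. Without siCtrl replicate 1, 2 or 3 there were 5211, 5280 and 5114, so calls were lost over all tested genes too. With each library left out, the number of member calls moved by a larger share than the number over all tested genes. That difference was not tested. Across the main analysis and its alternatives, 84.8% to 92.4% of the members called were higher. Under all 19 settings at the 0.05 threshold, 33 members were higher and 3, ZNF653, ZNF599 and ZNF575, were lower.

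**Figure D1:**
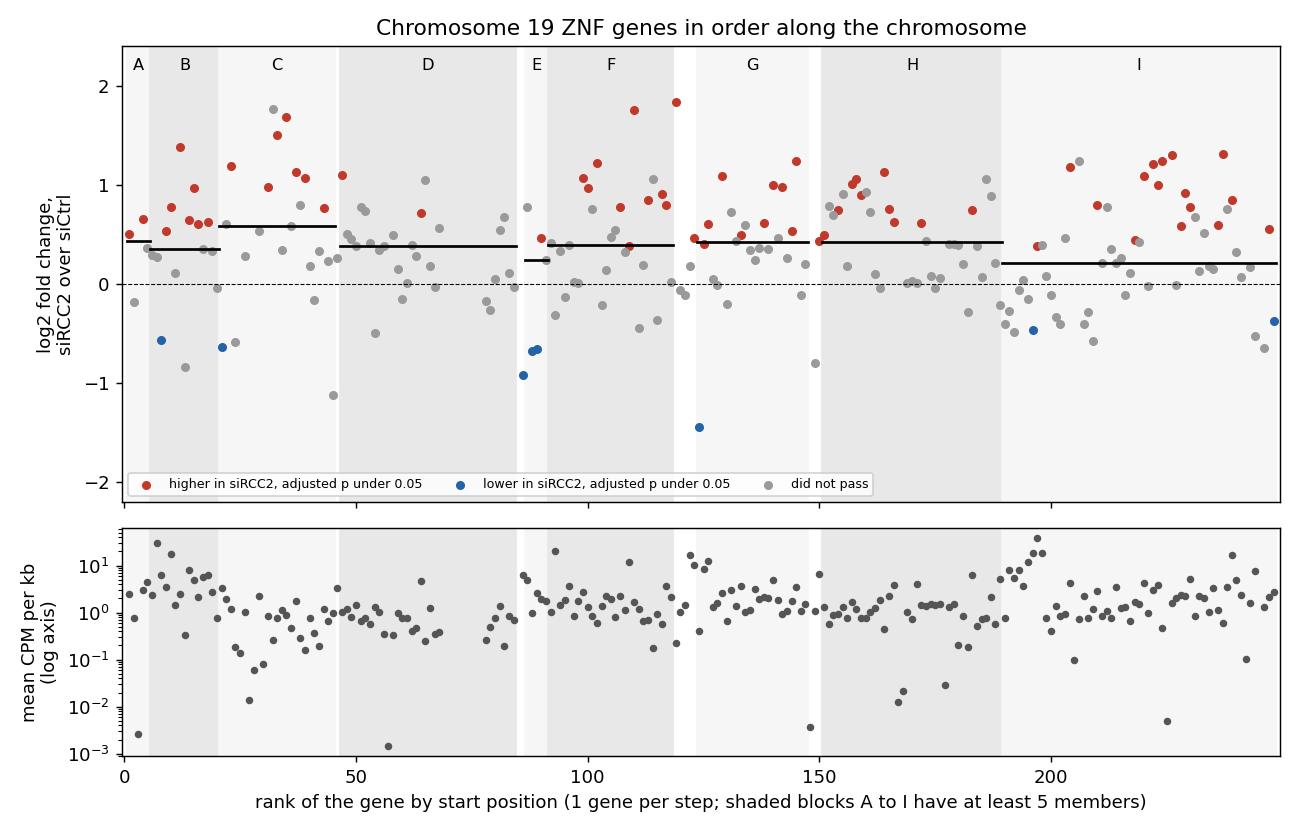
Log2 fold change of each tested member (upper panel; siRCC2 over siCtrl) and mean CPM per kb of each member with reads (lower panel; log axis), in order of start position, 1 gene per step. Shading and the letters A to I mark the 9 blocks of at least 5 members, in the order the text gives them, and black lines their median log2 fold change, which is above 0 in all 9. Red points (66 members, higher in siRCC2) occur in every block, and the 8 blue points (lower) are scattered.

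Summed over all 248 members, the counts came to 2127, 2490 and 2660 CPM in siRCC2 replicates 1 to 3, against 1928, 1895 and 1971 CPM in siCtrl replicates 1 to 3. The sums averaged 2426 ± 272 CPM in siRCC2 and 1931 ± 38.0 CPM in siCtrl (SD, n = 3 libraries each). Every siRCC2 sum exceeded every siCtrl sum, and the siRCC2 libraries spread more widely. The median difference of the tested members from the siCtrl mean, on the log2(CPM + 0.5) scale, was 0.12, 0.37 and 0.51 in siRCC2 replicates 1 to 3. In those libraries 103, 146 and 164 members lay above all 3 siCtrl libraries, and 71, 33 and 24 lay below all 3. Such counts by library were not made over all tested genes, so how far they differ from the background is not known.

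The low value of siRCC2 replicate 1 was found in members of low GC content. The 112 tested members with GC content below their median of 42.3% had median differences of -0.09, 0.37 and 0.54 in siRCC2 replicates 1 to 3. The 112 members at or above it had 0.30, 0.36 and 0.46. Among the members of lower GC content 21 were higher in siRCC2 and 2 lower, and among those of higher GC content 45 were higher and 6 lower. Their median log2 fold changes were 0.34 and 0.43, and their median levels also differed, 4.71 and 6.93 CPM. Calls were not counted over all tested genes of like GC content, so these counts have no background. With an offset for GC content in each library, 91 members were higher and 8 lower. That offset also raised the calls over all 16536 tested genes, from 6911 to 7770. Members had a median GC content of 42.2%, against 49.3% for all tested genes; the part of GC content in these results was not tested beyond these values.

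**Figure D2:**
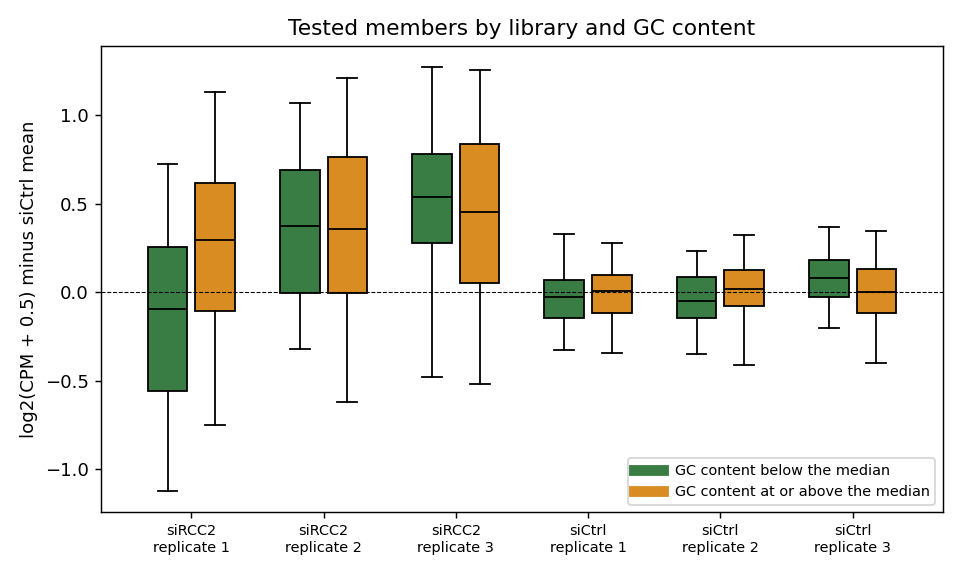
Log2(CPM + 0.5) of tested members minus their mean over the siCtrl libraries, for each of the 6 libraries, with members below the median GC content (green, n = 112) and at or above it (orange, n = 112). Boxes span the quartiles with the median as a line and whiskers the 5th to 95th percentiles. In siRCC2 replicate 1 the green median is -0.09 and the orange 0.30, whereas both medians are above 0.35 in the other siRCC2 libraries.

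Falls were few among members with a KRAB box, though the difference from members without one was not tested. Of the 192 tested members with a KRAB box, 59 (30.7%) were higher and 3 (1.56%) lower, with a median log2 fold change of 0.41. Of the 31 tested members without one, 7 (22.6%) were higher and 5 (16.1%) lower, with a median of 0.04, which became -0.02 when libraries were scaled by total counts only. The 3 KRAB members that fell were ZNF181, ZNF599 and ZNF446. The 5 others that fell, ZNF414, ZNF507, ZNF575, ZNF581 and ZNF653, encode no KRAB box. Median differences in siRCC2 replicates 1 to 3 were 0.13, 0.41 and 0.55 for members with the box and 0.05, 0.05 and 0.11 for those without. Members with the box had a median GC content of 41.9%, and the tested ones a median of 5.20 CPM. Without the box these medians were 59.6% and 15.2 CPM. The part of GC content and level in this contrast was not tested.

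ZNF genes elsewhere in the genome were more evenly split. Of 231 tested ZNF genes on other chromosomes, 41 (17.7%) were higher and 31 (13.4%) lower, with a median of 0.06, which became -0.01 with scaling by total counts only and -0.04 without siRCC2 replicate 3. Those with a KRAB box (89 tested) had 12 higher and 6 lower and a median of 0.18. Those without (141 tested) had 29 higher and 25 lower and a median of -0.06. The remaining 970 tested genes of chromosome 19 had 229 higher and 195 lower and a median of 0.02, which became -0.05 with scaling by total counts only and -0.04 without siRCC2 replicate 1. The difference between these groups of genes and the members was not tested, since members of a family are not replicates of a condition.

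**Figure D3:**
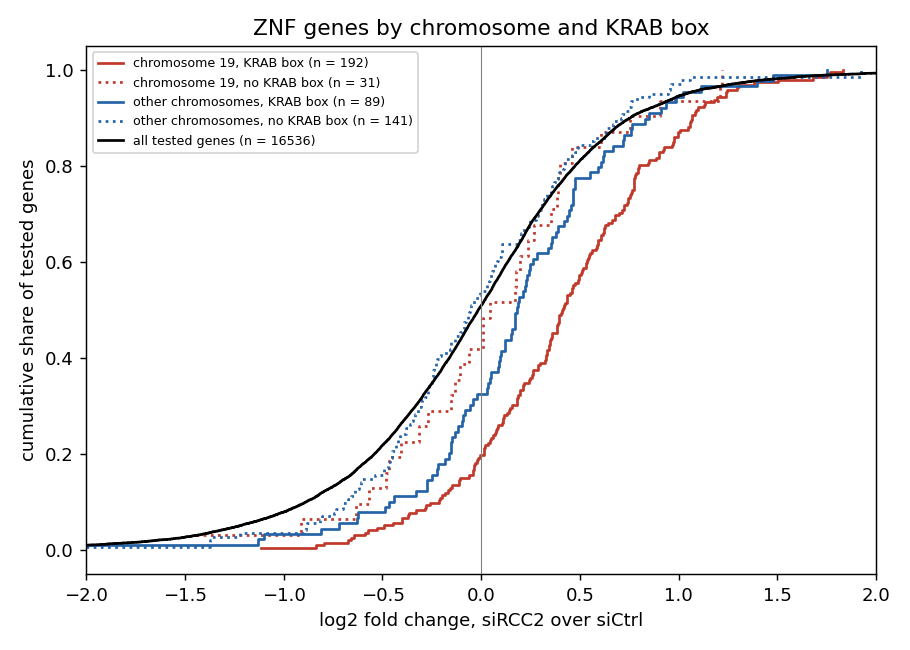
Cumulative share of tested genes against the log2 fold change (siRCC2 over siCtrl), for ZNF genes of chromosome 19 (red) and other chromosomes (blue), with a KRAB box (solid) and without (dotted), and for all tested genes (black). The curve of the 192 chromosome 19 genes with a KRAB box lies to the right of the others over most of the range, with its median at 0.41 against -0.02 for all tested genes.

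Along the chromosome, members were split into blocks wherever more than 1 Mb held no member. This gave 16 blocks, of which 9 had at least 5 members. The median log2 fold change was above 0 in all 9, and in 8 of them more members were higher than lower. The block at 2.82 to 2.94 Mb (5 members, 4 tested) had 2 higher, ZNF554 and ZNF57, and a median of 0.43. The block at 7.07 to 9.79 Mb (15 members, all tested) had 7 higher and 1 lower and a median of 0.35. Its members had the highest median level of the 9 blocks, 3.54 CPM per kb.

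In the block at 11.5 to 12.6 Mb, 21 of 25 members were tested, 7 were higher and 1 lower, and the median of 0.59 was the highest of the 9. The members that passed the test there with a rise of at least 2-fold were ZNF823, ZNF844, ZNF625, ZNF44 and ZNF442. The block at 19.7 to 24.1 Mb, nearest the centromere on the short arm, had the lowest median level, 0.491 CPM per kb, and the lowest share of calls among tested members, 7.14%. Of its 38 members 28 were tested, and 2 were higher (ZNF101 and ZNF738) and 0 lower. Its median of 0.38 was close to that of all members. In siRCC2 replicates 1 to 3 its median differences were -0.23, 0.31 and 0.58, so replicate 1 lay on the other side of 0.

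On the long arm, the small block at 34.7 to 35.0 Mb (5 members, all tested) had 2 lower, ZNF181 and ZNF599, and 1 higher, ZNF30, with a median of 0.25. The block at 36.2 to 37.8 Mb (27 members, all tested) had 9 higher and 0 lower and a median of 0.39. At 43.5 to 45.1 Mb (24 members, all tested) 9 were higher and 1 lower, with a median of 0.42. At 51.6 to 53.6 Mb (39 members, 36 tested) 10 were higher and 0 lower, again with a median of 0.42; median differences in siRCC2 replicates 1 to 3 were -0.03, 0.53 and 0.62. The last block, at 55.5 to 58.5 Mb near the end of the long arm (59 members, 55 tested), had 16 higher and 2 lower and the lowest median, 0.22. The 11 members outside these blocks had 3 higher (ZNF546, ZNF526 and ZNF473) and 1 lower (ZNF507) of 9 tested.

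Neighbours were only loosely alike. Over 209 pairs of adjacent tested members of a block, the log2 fold changes had a Pearson correlation of 0.16 and a Spearman correlation of 0.18, and differed by a median of 0.35; pairs share a library set and often sequence. Both neighbours were higher in 18 of the 209 pairs. With 29.5% of tested members higher, some such pairs arise without likeness of neighbours, so the count is not read as likeness. Across the 224 tested members the Pearson and Spearman correlations of the log2 fold change were -0.04 and -0.05 with start position and -0.17 and 0.02 with GC content, which differ in sign. They were 0.01 and -0.01 with transcript length, -0.05 and -0.01 with mean CPM and, over 223 members, 0.11 and 0.07 with the number of fingers. Members share libraries and many share sequence.

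More members were called higher in the group of highest level, while the groups below it were alike. In 4 groups of 56 tested members each, from the lowest to the highest mean CPM, 12, 14, 13 and 27 were higher in siRCC2. Among all tested genes in the same ranges of level, 11.8%, 15.1%, 15.7% and 21.1% were higher. Of the 202 tested members with under 20% shared sequence, 61 were higher and 7 lower (median 0.39), and of the 22 with more, 5 were higher and 1 lower (median 0.28). On the plus strand 36 of 122 were higher and 5 lower, and on the minus strand 30 of 102 were higher and 3 lower.

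The member with the smallest p of all was ZNF274 (ENSG00000171606, GRCh38 chr19:58183029-58213562), a KRAB zinc finger protein known for binding the zinc finger exons at the 3′ ends of other ZNF genes, where it brings in SETDB1. It had 56.8, 57.6 and 58.4 CPM in siRCC2 replicates 1 to 3, against 32.7, 32.2 and 31.2 CPM in siCtrl replicates 1 to 3. The siRCC2 libraries sat close together above the siCtrl libraries, which were as close. The level averaged 57.6 ± 0.816 CPM in siRCC2 and 32.0 ± 0.770 CPM in siCtrl (SD, n = 3 libraries each), which is a log2 fold change of 0.85 ± 0.07 (adjusted p = 0.000234). Its transcript shared 0 of its 50-base stretches with other genes, and its call held under every alternative run.

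Elsewhere on the long arm, ZNF45 (chr19:43912629-43935278), a KRAB zinc finger gene of the 43.5 to 45.1 Mb block, had 13.4, 12.2 and 15.2 CPM in siRCC2 replicates 1 to 3, against 6.85, 6.57 and 5.77 CPM in siCtrl replicates 1 to 3. The groups did not overlap, and the log2 fold change was 1.09 ± 0.14 (adjusted p = 0.00100). ZNF229 (chr19:44417519-44448578), in the same block, had 19.3, 28.5 and 25.3 CPM in siRCC2 replicates 1 to 3, against 10.7, 10.6 and 9.69 CPM in siCtrl replicates 1 to 3. All 3 siRCC2 values were higher than the siCtrl values, with a log2 fold change of 1.24 ± 0.16 (adjusted p = 0.00106). ZNF677 (chr19:53235381-53254898), in the 51.6 to 53.6 Mb block, had 25.6, 28.1 and 28.7 CPM in siRCC2 replicates 1 to 3, against 16.1, 15.7 and 17.4 CPM in siCtrl replicates 1 to 3. Its siRCC2 libraries again lay above its siCtrl libraries, with a log2 fold change of 0.74 ± 0.10 (adjusted p = 0.00123).

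The largest rises, ZNF229 among them, were named only where the groups did not overlap, so that feature follows from the rule. The largest rise among members of at least 1 CPM was that of ZNF546 (chr19:39984134-40021041; 22 fingers and a KRAB box). It had 2.18, 1.96 and 4.30 CPM in siRCC2 replicates 1 to 3, against 1.04, 0.431 and 0.876 CPM in siCtrl replicates 1 to 3. The siRCC2 values were higher, with replicate 3 the highest, and the log2 fold change was 1.83 ± 0.43 (adjusted p = 0.0131). ZNF527 (chr19:37371061-37393066) had 4.60, 12.4 and 5.24 CPM in siRCC2 replicates 1 to 3, against 2.23, 1.89 and 2.47 CPM in siCtrl replicates 1 to 3. Replicate 2 was far above the other siRCC2 libraries, and the log2 fold change was 1.75 ± 0.40 (adjusted p = 0.0122). ZNF345 (chr19:36850361-36913029), whose coding sequence holds 15 fingers and no KRAB box, had 3.14, 3.04 and 2.83 CPM in siRCC2 replicates 1 to 3, against 1.49, 1.08 and 1.29 CPM in siCtrl replicates 1 to 3. The libraries of each group were close to each other, with a log2 fold change of 1.22 ± 0.19 (adjusted p = 0.00262).

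On the short arm, ZNF844 (chr19:12064699-12081565) had 6.05, 8.45 and 7.65 CPM in siRCC2 replicates 1 to 3, against 2.08, 2.69 and 3.04 CPM in siCtrl replicates 1 to 3. Every siRCC2 value was above every siCtrl value, and the log2 fold change was 1.50 ± 0.20 (adjusted p = 0.00133). ZNF559 (chr19:9323772-9351162) had 13.8, 17.9 and 22.8 CPM in siRCC2 replicates 1 to 3, against 4.81, 8.25 and 7.93 CPM in siCtrl replicates 1 to 3. The groups did not overlap, with a log2 fold change of 1.38 ± 0.26 (adjusted p = 0.00539); 9.85% of its 50-base stretches occur in other genes, mostly in the readthrough gene ZNF559-ZNF177. ZNF625 (chr19:12142090-12156729) had 1.39, 2.73 and 2.67 CPM in siRCC2 replicates 1 to 3, against 0.695, 0.701 and 0.721 CPM in siCtrl replicates 1 to 3, a log2 fold change of 1.68 ± 0.32 (adjusted p = 0.00535). This value is uncertain, since 77.6% of its stretches occur in other genes, mostly in the readthrough gene ZNF625-ZNF20. ZNF561 averaged 35.7 ± 3.12 CPM in siRCC2 and 23.2 ± 0.476 CPM in siCtrl (log2 fold change 0.62 ± 0.10, adjusted p = 0.00235), ZNF738 averaged 14.4 ± 1.30 CPM in siRCC2 and 8.76 ± 0.779 CPM in siCtrl (0.71 ± 0.13, adjusted p = 0.00413) and ZNF57 averaged 7.55 ± 1.56 CPM in siRCC2 and 4.78 ± 0.0702 CPM in siCtrl (0.66 ± 0.18, adjusted p = 0.0226). The call of ZNF57 was lost without siCtrl replicate 1, 2 or 3 (adjusted p = 0.0647, 0.0697 and 0.0696) and without siRCC2 replicate 2 or 3 (0.0627 and 0.0552), where the range over 18 alternatives was 0.00345 to 0.0697.

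Further rises came from the cluster next to the end of the long arm. ZNF135 (chr19:58059239-58086310) had 2.96, 2.63 and 3.04 CPM in siRCC2 replicates 1 to 3, against 1.04, 1.72 and 0.721 CPM in siCtrl replicates 1 to 3, a log2 fold change of 1.31 ± 0.31 (adjusted p = 0.0133). ZNF671 (chr19:57719751-57727624), whose promoter is often methylated in carcinomas, had 7.38, 3.40 and 6.24 CPM in siRCC2 replicates 1 to 3, against 2.83, 1.89 and 2.16 CPM in siCtrl replicates 1 to 3, a log2 fold change of 1.30 ± 0.32 (adjusted p = 0.0150). ZNF551 (chr19:57681969-57717301) had 3.39, 3.50 and 2.15 CPM in siRCC2 replicates 1 to 3, against 1.59, 0.808 and 1.39 CPM in siCtrl replicates 1 to 3, a log2 fold change of 1.24 ± 0.31 (adjusted p = 0.0168). The groups did not overlap, which the rule for naming rises required, and each of these genes has few reads. The call of ZNF135 was lost without siCtrl replicate 1 (adjusted p = 0.0518; range over 18 alternatives 0.00301 to 0.0518), that of ZNF551 without siRCC2 replicate 2 (0.0585; range 0.00515 to 0.0585), and that of ZNF671 without siCtrl replicate 2 or 3 (0.0565 and 0.0539; range 0.000955 to 0.0565). Exons of an opposite-strand gene cover 32.6% of the exons of ZNF135.

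**Figure D4:**
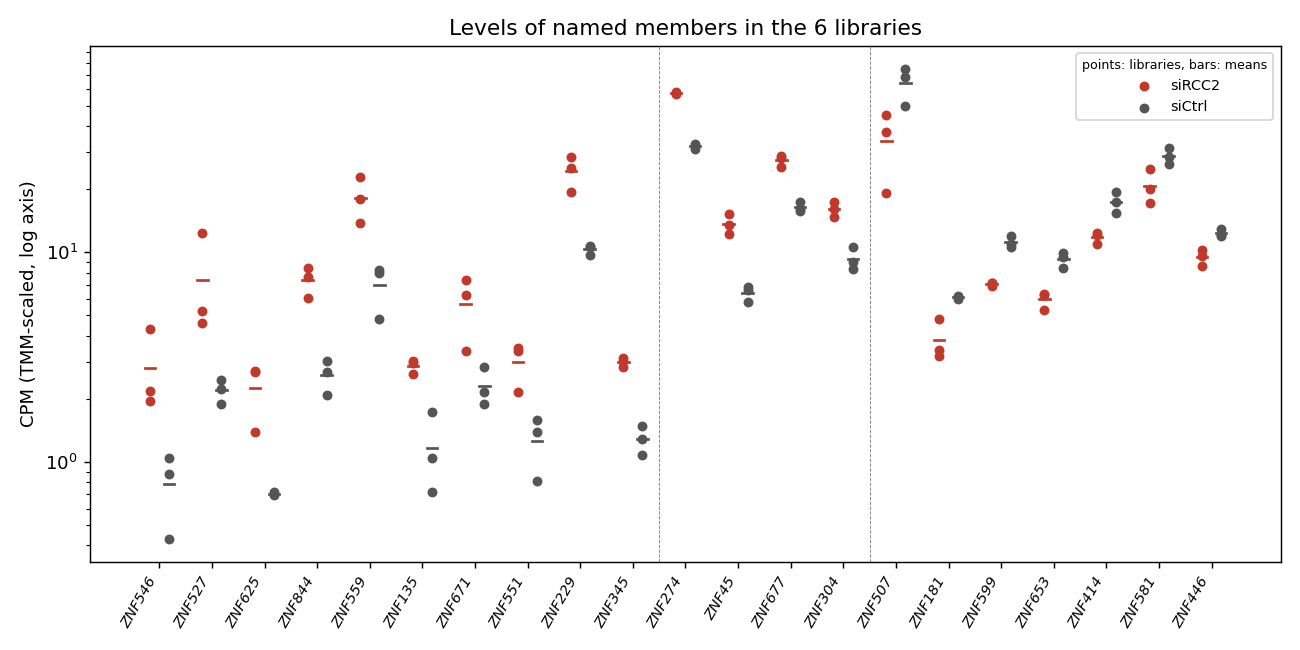
TMM-scaled CPM (log axis) of 21 named members in each library, with siRCC2 (red) left of siCtrl (grey); bars are means of 3 libraries. The first 10 genes are the largest rises, the next 4 (ZNF274, ZNF45, ZNF677 and ZNF304) are others that were higher, and the last 7 are the falls. Within each gene the groups do not overlap, which was a condition for naming the rises and the falls.

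Among members of at least 1 CPM, 7 passed the test as lower in siRCC2 with no overlap of the groups. Absence of overlap was a condition for naming them as falls. ZNF507 (chr19:32345594-32387667) had 19.2, 37.5 and 45.3 CPM in siRCC2 replicates 1 to 3, against 68.5, 49.6 and 74.5 CPM in siCtrl replicates 1 to 3. The siRCC2 libraries were lower and replicate 1 was the lowest, with a log2 fold change of -0.91 ± 0.31 (adjusted p = 0.0478). That call was lost without siCtrl replicate 1, 2 or 3 (adjusted p = 0.119, 0.0526 and 0.135) and without siRCC2 replicate 2 (0.0763), in a range over 18 alternatives of 0.00474 to 0.135.

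The neighbours ZNF181 and ZNF599, both with KRAB boxes, lie in the block at 34.7 to 35.0 Mb on opposite strands. ZNF599 (chr19:34758076-34773229) had 6.89, 7.16 and 7.13 CPM in siRCC2 replicates 1 to 3, against 11.9, 10.9 and 10.6 CPM in siCtrl replicates 1 to 3. The siRCC2 libraries were close together below the siCtrl libraries, with a log2 fold change of -0.66 ± 0.11 (adjusted p = 0.00348). ZNF181 (chr19:34734155-34745378) had 3.20, 4.79 and 3.41 CPM in siRCC2 replicates 1 to 3, against 6.10, 5.98 and 6.18 CPM in siCtrl replicates 1 to 3. Here too the groups did not overlap (log2 fold change -0.68 ± 0.18, adjusted p = 0.0227), but the call was lost under 7 of 18 alternatives. These were leaving out any 1 of the siCtrl replicates 1 to 3 (adjusted p = 0.0646, 0.0604 and 0.0659) or siRCC2 replicate 3 (0.0612), and GC offsets (0.0717). The others were the replicate block with GC offsets (0.0773) or with length offsets (0.0503). The range over 18 alternatives was 0.0107 to 0.0773.

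ZNF653 (chr19:11483427-11505923) had 5.32, 6.29 and 6.34 CPM in siRCC2 replicates 1 to 3, against 9.53, 9.97 and 8.45 CPM in siCtrl replicates 1 to 3. Each siRCC2 value was below each siCtrl value, with a log2 fold change of -0.64 ± 0.14 (adjusted p = 0.00895). ZNF414 had 12.1, 10.9 and 12.3 CPM in siRCC2 replicates 1 to 3, against 17.4, 15.5 and 19.4 CPM in siCtrl replicates 1 to 3, a log2 fold change of -0.57 ± 0.12 (adjusted p = 0.0101). Without siRCC2 replicate 2 the adjusted p of ZNF414 was 0.052, in a range over 18 alternatives of 0.00413 to 0.052. ZNF575, at 0.490 ± 0.126 CPM in siRCC2 and 1.35 ± 0.279 CPM in siCtrl, had the most negative log2 fold change of the tested members, -1.44 ± 0.31 (adjusted p = 0.00861) on the log2 scale; its mean was below the level of 1 CPM set for naming, and it is named since it was the only member called lower at 2-fold or more.

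ZNF581 and ZNF446 were at the edge of the threshold. ZNF581 averaged 20.8 ± 3.98 CPM in siRCC2 and 28.7 ± 2.54 CPM in siCtrl and changed by -0.47 ± 0.15 (adjusted p = 0.0453) on the log2 scale. ZNF446 averaged 9.50 ± 0.828 CPM in siRCC2 and 12.3 ± 0.506 CPM in siCtrl and changed by -0.37 ± 0.12 (adjusted p = 0.0386). ZNF581 lost its call without siCtrl replicate 1, 2 or 3 (adjusted p = 0.101, 0.139 and 0.072) and without siRCC2 replicate 2 or 3 (0.162 and 0.096), with DESeq2 size factors (0.0611) and with a filter of 1 CPM in 3 libraries (0.0595), in a range over 18 alternatives of 0.00611 to 0.162. ZNF446 lost its call under 12 of 18 alternatives. These were the same left-out libraries (0.0867, 0.119, 0.092, 0.0774 and 0.0939), DESeq2 (0.0851), DESeq2 size factors (0.0501), a filter of at least 1 read (0.0569), length offsets (0.0789) and the replicate block alone, with GC offsets or with length offsets (0.0635, 0.0601 and 0.101), in a range of 0.0183 to 0.119. ZNF446 shares 35.4% of its stretches with other genes, mostly ZNF324, and ZNF581 shares 16.1%, mostly with ZNF580. ZNF580 itself averaged 19.4 ± 1.79 CPM in siRCC2 and 21.5 ± 9.59 CPM in siCtrl, a log2 fold change of -0.15 ± 0.33 (adjusted p = 0.741); its siCtrl replicate 3 was low at 10.6 CPM, and without that library the adjusted p was 0.0435 (range over 18 alternatives 0.0435 to 0.974).

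For ZNF91 and ZNF93, each known for repressing a kind of retrotransposon, the adjusted p was above 0.05. ZNF91, which represses SVA elements, had 2.36, 4.48 and 6.29 CPM in siRCC2 replicates 1 to 3, against 4.37, 4.42 and 3.97 CPM in siCtrl replicates 1 to 3. The siRCC2 libraries lay on both sides of the siCtrl libraries, and the log2 fold change was 0.05 ± 0.32 (adjusted p = 0.914), with values from -0.30 to 0.33 over 18 alternatives. ZNF93, which represses LINE-1 elements, had 1.69, 2.99 and 2.78 CPM in siRCC2 replicates 1 to 3, against 1.49, 1.40 and 1.60 CPM in siCtrl replicates 1 to 3. Its groups did not overlap and its log2 fold change was 0.74 ± 0.26 (adjusted p = 0.0538); it passed under 6 of 18 alternatives, and without siRCC2 replicate 1 the adjusted p was 0.00995 (range 0.00995 to 0.151).

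Other members named for a role known outside this series were mixed. ZNF304 had 14.8, 17.3 and 16.1 CPM in siRCC2 replicates 1 to 3, against 8.98, 10.6 and 8.30 CPM in siCtrl replicates 1 to 3. Its groups did not overlap, with a log2 fold change of 0.79 ± 0.13 (adjusted p = 0.00341). ZNF175, which represses the HIV-1 long terminal repeat, averaged 10.1 ± 1.03 CPM in siRCC2 and 7.23 ± 0.284 CPM in siCtrl (0.49 ± 0.13, adjusted p = 0.0191 on the log2 scale). The ZNF175 call was lost without siCtrl replicate 1, 2 or 3 (adjusted p = 0.0539, 0.0584 and 0.0724) and without siRCC2 replicate 2 (0.0603), in a range over 18 alternatives of 0.00368 to 0.0724. ZNF350, or ZBRK1, a partner of BRCA1 in repressing GADD45A, averaged 3.97 ± 1.21 CPM in siRCC2 and 2.12 ± 0.706 CPM in siCtrl (0.90 ± 0.32, adjusted p = 0.0589); it passed under 6 of 18 alternatives, and without siRCC2 replicate 1 its adjusted p was 0.0297 (range 0.0281 to 0.159).

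Neither the imprinted gene ZNF331 nor ZNF675, an inhibitor of TRAF6 signalling, passed. ZNF331 averaged 24.3 ± 4.44 CPM in siRCC2 and 28.1 ± 0.713 CPM in siCtrl (-0.21 ± 0.14, adjusted p = 0.270 on the log2 scale), and without siRCC2 replicate 3 its adjusted p was 0.0342 (range over 18 alternatives 0.0342 to 0.472). ZNF675 averaged 3.75 ± 1.37 CPM in siRCC2 and 2.58 ± 0.111 CPM in siCtrl (0.54 ± 0.27, adjusted p = 0.148), and it passed under 3 of 18 alternatives: without siRCC2 replicate 1 its adjusted p was 0.0451, and with GC offsets, without and with the replicate block, 0.0141 and 0.0417 (highest 0.425). ZNF382 and ZNF582, whose promoters are often methylated in cancers, had log2 fold changes of 0.02 and 0.08, ZNF418 had 0.18 and ZNF296 had 0.20; their adjusted p-values were 0.966, 0.801, 0.524 and 0.635. Over 18 alternatives the log2 fold change changed sign for ZNF382 (-0.36 to 0.19), ZNF582 (-0.06 to 0.24) and ZNF296 (-0.21 to 0.44), so no direction is given for them.

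Corepressors of KRAB zinc fingers and other genes of chromatin silencing were described from a list of 37 genes, all tested. It is wider than the partners of the KRAB box, with genes such as TRIM24, TRIM33, ATRX, DAXX and MORC3. It is called the corepressor list here. The list also holds ZKSCAN1, itself a zinc finger gene, which did not pass. Of the 37, 9 (24.3%) were higher and 6 (16.2%) lower in siRCC2, against 20.7% and 21.1% of all tested genes. The share called, 40.5%, was near the 41.8% of all tested genes. The median log2 fold change of the list was 0.03. Its sign turned with total counts only (-0.04) and with a filter of at least 1 read (-0.0040). TRIM28, the direct partner of the KRAB box, had 345, 321 and 345 CPM in siRCC2 replicates 1 to 3, against 315, 355 and 341 CPM in siCtrl replicates 1 to 3. The groups overlapped almost fully, with a log2 fold change of -0.00 ± 0.07 (adjusted p = 0.991). SETDB1 averaged 93.7 ± 3.03 CPM in siRCC2 and 96.4 ± 2.30 CPM in siCtrl, a log2 fold change of -0.04 ± 0.07 (adjusted p = 0.643). The genes of heterochromatin protein 1 were split. CBX1 was higher, with a log2 fold change of 1.34 ± 0.27 (adjusted p = 0.00661). CBX5 was lower (-0.33 ± 0.10, adjusted p = 0.0374), and CBX3 did not pass (0.13 ± 0.11, adjusted p = 0.386).

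Of the 4 genes of that list with the smallest p, DNMT1, the maintenance DNA methyltransferase, had 241, 222 and 218 CPM in siRCC2 replicates 1 to 3, against 335, 320.4 and 315 CPM in siCtrl replicates 1 to 3. All siRCC2 values were lower, with a log2 fold change of -0.51 ± 0.07 (adjusted p = 0.00110). The other 3 were higher: GATAD2A, a NuRD subunit, averaged 98.6 ± 4.03 CPM in siRCC2 and 62.4 ± 8.24 CPM in siCtrl (0.66 ± 0.11, adjusted p = 0.00277 on the log2 scale), DNMT3B, a de novo DNA methyltransferase, averaged 21.5 ± 1.53 CPM in siRCC2 and 12.2 ± 1.74 CPM in siCtrl (0.81 ± 0.14, adjusted p = 0.00314), and the histone deacetylase HDAC1 averaged 130.4 ± 14.3 CPM in siRCC2 and 90.4 ± 2.03 CPM in siCtrl (0.53 ± 0.09, adjusted p = 0.00362). The groups did not overlap in any of these 3 genes, and the 4 calls held under every alternative run.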

How the data were processed

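The authors deposited 1 table of whole-number counts per gene for each of the 6 libraries. Per the labels' protocols, total RNA went into libraries made with an MGI kit. Per the submitters' processing notes, Bowtie2, RSEM and DESeq2 were used on GRCh38, with no versions given. RSEM divides reads among like sequences, so counts of related members depend on that division, and its estimates may have been rounded. How ribosomal RNA was removed is not given in the sources used here.

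The counts were compared between groups by edgeR 4.0.16 in R 4.3.3 (filterByExpr, TMM, glmQLFit and glmQLFTest, group only), with Benjamini-Hochberg adjustment over all 16536 genes tested called at 0.05. Fold changes divide siRCC2 by siCtrl; the SE of each is its log2 size over the root of F. Replicates were not copies of 1 library: chi-square over degrees of freedom was 10.2 to 34.1 for pairs within a group. On simulated counts for this comparison with 200 genes changed, the share recovered was 6.67% for 1.5-fold changes, 65.0% for 2-fold, 84.3% for 3-fold and 93.6% for 4-fold. False calls were 9 of 126. In the data 6911 genes were called, far more than the 200 changed in the simulation. The adjusted threshold depends on that number, so these shares do not carry over to the data.

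Fingers, KRAB boxes, exon overlap and shared 50-base stretches came from GENCODE 29 (231 members at identical coordinates). Named members were the largest rises and falls among called genes whose mean was 1 CPM or more and whose groups did not overlap, the 5 highest per kb, the smallest p of each block of at least 5 members, members with a role known outside this series, and 4 genes of the corepressor list. Members, lists and rules were chosen with earlier results of these data known. Alternatives were 3 other scalings, DESeq2 1.42.0, limma-voom (limma 3.58.1), 2 other filters, the replicate number as a block, GC and length offsets, other block gaps, a limit on shared sequence, leaving out each library, and a threshold of 0.01. Python 3.11.15, pandas 2.3.3 and matplotlib 3.10.9 made tables and figures.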

Additional observations from a re-analysis of the deposited data

How the results depend on the processing

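The members' median log2 fold change was between 0.26 and 0.47 under every alternative run. At a threshold of 0.01, 26 members were higher and 3 lower; 24 and 17 ZNF genes of other chromosomes were; 142 and 121 other genes of chromosome 19 were; and 5 and 2 corepressor genes were. Leaving out 1 library at a time gave 43 to 97 members higher and 5 to 9 lower, with 7 to 10 corepressor genes higher, 3 to 8 lower and a median of 0.0011 to 0.077, 18 to 35 ZNF genes of other chromosomes lower and 121 to 244 other genes of chromosome 19 lower. Among corepressor genes, GC offsets gave 15 higher with a median of 0.10, the replicate block with GC offsets 14 higher, 10 lower and 0.10, length offsets a median of 0.15, the replicate block with length offsets 0.15, and total counts only -0.0401. With length offsets 19 ZNF genes of other chromosomes were lower, and 20 with the replicate block added. Same-numbered libraries did not deviate together (correlations 0.06, -0.04 and 0.10), so the number is not taken as a pairing; with the replicate block 61 members were higher and 8 lower, of which 58 and 7 were called without it. Split at gaps of 0.5 Mb there were 10 blocks of at least 5 members, 9 with a median above 0, and split at 2 Mb all 6 had one. At 1 CPM, or 16.5 to 20.2 reads, small changes of low members were not detectable at this depth.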

Other observations

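Zinc finger genes of other names lie among the members. The name rule took 15 genes of chromosome 19 named ZFP, ZSCAN, ZIM, ZIK1 or PEG3, and left out ZFP36. Of the 15, 7 were tested, 3 were higher in siRCC2 and 0 were lower, with a median log2 fold change of 0.06. The 3, chosen here after their values were seen, encode a SCAN domain, a protein module through which zinc finger proteins pair. ZSCAN5A had 7.01, 7.26 and 7.39 CPM in siRCC2 replicates 1 to 3, against 4.37, 4.80 and 3.66 CPM in siCtrl replicates 1 to 3, which is a log2 fold change of 0.76 ± 0.15 (standard error; edgeR adjusted p = 0.00592). ZSCAN18 averaged 39.5 ± 3.40 CPM in siRCC2 and 24.7 ± 6.19 CPM in siCtrl (SD, n = 3 libraries each; log2 fold change 0.68, edgeR adjusted p = 0.0204), and ZSCAN22 averaged 13.2 ± 0.476 CPM in siRCC2 and 10.2 ± 0.540 CPM in siCtrl (log2 fold change 0.38, edgeR adjusted p = 0.0258). The 4 tested ZFP genes among the 15, ZFP14, ZFP28, ZFP30 and ZFP82, had log2 fold changes between -0.31 and 0.06 and did not pass.

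Genes not listed as protein-coding in GENCODE 29 include those absent from it, since it holds 50111 of the 50868 genes. Within the stretches from the first to the last member of each block, 73 such genes were tested. Of these, 28 were higher and 5 lower, with a median log2 fold change of 0.50. Outside the blocks, 89 such genes of chromosome 19 had 12 higher and 11 lower and a median of 0.09, and over the genome 3144 had 590 higher and 359 lower and a median of 0.10. Protein-coding genes inside the blocks that are not members (86 tested) had 14 higher and 13 lower and a median of -0.04. The 73 genes inside the blocks not listed as protein-coding had a median of 1.70 CPM. Some overlap members, so reads may be divided between them, and the part of that division was not tested. Of the 15 ZNF pseudogene rows, 5 were tested and 1 was higher: ZNF542P had 11.9, 13.0 and 14.9 CPM in siRCC2 replicates 1 to 3, against 2.48, 7.22 and 6.13 CPM in siCtrl replicates 1 to 3 (log2 fold change 1.33 ± 0.35; edgeR adjusted p = 0.0197).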
